A study of Mus musculus with 24 samples.

Results

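The genes of 10 hypothalamic neuropeptides, *Trh*, *Pomc*, *Agrp*, *Gnrh1*, *Gal*, *Ghrh*, *Pmch*, *Oxt*, *Hcrt* and *Avp*, were followed in RNA-Seq libraries of the mouse nucleus accumbens (NAc). They were taken as a measure of RNA from neighboring tissue, and whether cells of the NAc make some of this RNA was not tested. These peptide genes were found by symbol through their Ensembl identifiers and make up 10 of the 38293 genes in the count table. The genes were chosen by their read counts in these same mRNA libraries, so that their levels and their differences between groups are given as a description. Per kilobase, all 10 lay far below *Penk*, a gene of striatal neurons. *Trh* gave 70.0% of the 3987 reads that the 10 genes received among 584446102 reads in all, and *Avp* and *Oxt* gave 10 and 16.

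The libraries came from C57BL/6J mice, labelled as 9 weeks old, in 4 groups of 3: unstressed males (NSM), stressed males (SM), unstressed females (NSF) and stressed females (SF). Stress was subchronic variable stress (SCVS), in which foot shock, tail suspension and restraint alternate over 6 days, and the tissue was taken the day after the last stressor. All females were in estrus or proestrus. Each library was a pool of 10 ventral striatal punches from 5 mice, so that the spread within a group is that between pools and not between animals, and the labels name no transgene or drug treatment.

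Hypothalamic neuropeptides are made by small, sharply placed groups of neurons as larger precursors that are cut into active peptides inside secretory vesicles. Some are released into the blood of the pituitary, where they control hormone secretion, and others are carried along axons to many brain regions. The NAc receives several of these axons and expresses receptors for the peptides, whereas the messenger RNA stays mostly in the cell bodies that lie elsewhere.

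Between 41076780 and 60867747 reads per library were counted to genes. The 10 striatal neuron genes, among them *Penk*, *Ppp1r1b* and *Pde10a*, summed to between 5688 and 7133 CPM (edgeR's read counts normalized to library size, here with TMM factors) in every library. Libraries stood apart in genes of neighboring tissue. The 6 genes of cortical glutamatergic neurons summed to between 5.95 and 382.5 CPM, and *Ttr*, which marks the choroid plexus, reached 3743 reads in NSM replicate 1 against a median of 39.5 over the 12 libraries.

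The sequence of *Oxt* and *Avp* is shown because it limits how their few reads can be told apart. *Oxt*, the gene of oxytocin, lies on chromosome 2 of NCBIM37 from 130401909 to 130402790 on the plus strand, and *Avp*, the gene of vasopressin, from 130406356 to 130408290 on the minus strand, with 3565 bases between them. Both code for a peptide followed by a neurophysin, its carrier protein. Their transcripts share an unbroken run of 127 identical bases, in capitals, of which the first 2 close exon 1 and the other 125 lie in exon 2 of 3. Each sequence starts at the initiation codon.
Oxt: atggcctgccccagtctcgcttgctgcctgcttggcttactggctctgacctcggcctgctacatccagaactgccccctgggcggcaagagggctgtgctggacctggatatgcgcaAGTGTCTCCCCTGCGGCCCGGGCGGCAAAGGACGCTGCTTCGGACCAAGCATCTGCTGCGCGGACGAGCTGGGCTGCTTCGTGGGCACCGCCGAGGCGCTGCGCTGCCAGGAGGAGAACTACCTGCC
Avp: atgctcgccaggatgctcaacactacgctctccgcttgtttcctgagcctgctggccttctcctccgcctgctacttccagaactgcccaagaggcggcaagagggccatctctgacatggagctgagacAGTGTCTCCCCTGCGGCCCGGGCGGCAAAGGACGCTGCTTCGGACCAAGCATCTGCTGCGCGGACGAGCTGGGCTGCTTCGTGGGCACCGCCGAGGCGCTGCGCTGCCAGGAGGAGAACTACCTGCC
The exon 2 part lies at chr2:130402327-130402451 in *Oxt* and at chr2:130406869-130406993 in *Avp*. Of the windows of 50 bases, the length of a read, 78 of 488 in *Oxt* and 78 of 528 in *Avp* were found in the other gene. The remaining windows were found in no protein-coding transcript of another gene, so that most positions of either transcript can be assigned among such transcripts. The counts of both genes are uncertain where reads fell in the shared run. Reads were sequenced in pairs, and the windows were compared singly, without the other read of a pair.

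*Oxt* was counted at 1, 1 and 0 reads in NSM, 0, 1 and 0 in SM, 0, 3 and 4 in NSF and 0, 0 and 6 in SF. *Avp* was counted at 0, 0 and 1 reads in NSM, 0 in all 3 SM libraries, 1, 0 and 2 in NSF and 3, 2 and 1 in SF. No library had more than 3 reads of *Avp*, and only NSF replicate 3 and SF replicate 3 had more than 3 of *Oxt*. A count of 0 allows up to 3 reads, which is between 0.0495 and 0.0755 CPM in these libraries, and such limits cover counting error only. Differences between groups in either gene were not detectable at this depth.

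The other low genes were *Hcrt* and *Pmch*, both made by neurons of the lateral hypothalamus. *Hcrt*, which encodes the orexins that sustain wakefulness (chromosome 11, 100622383 to 100624245, minus strand), had 2, 1 and 3 reads in NSM, 2, 0 and 2 in SM, 0, 4 and 3 in NSF and 1, 1 and 2 in SF. *Pmch*, which encodes melanin-concentrating hormone (chromosome 10, 87553817 to 87555120, plus strand), had 4, 6 and 4 reads in NSM, 2, 3 and 3 in SM, 3, 7 and 0 in NSF and 1, 2 and 2 in SF. All 3 NSM libraries exceeded 3 reads of *Pmch*, against 1 of the NSF libraries and no stressed library. This split rests on a few reads per library, not scaled for depth, and was not tested. Of all tested genes, 23.0% had CPM that did not overlap between SM and NSM. Of the exon bases of *Pmch*, 435 of 749 overlap 4930547N16Rik on the opposite strand. Because the strand setting of the counting is not given in the sources used here, reads of these genes cannot be told apart there.

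*Avp*, *Oxt*, *Hcrt* and *Pmch* were not tested, because no group had more than 5 of their reads in 80% or more of its libraries. *Ghrh* lay just inside it with 6, 6 and 7 reads in NSF, and *Oxt* and *Pmch* just outside with 1 library of a group above 5 reads. The 6 genes that passed are *Trh*, *Pomc*, *Agrp*, *Gnrh1*, *Gal* and *Ghrh*. *Gal* passed only through SF, with 9, 17 and 12 reads, and *Ghrh* only through NSF. Their values in comparisons with those groups, and the medians of the 6, depend on this selection and are a description.

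**Figure D1:**
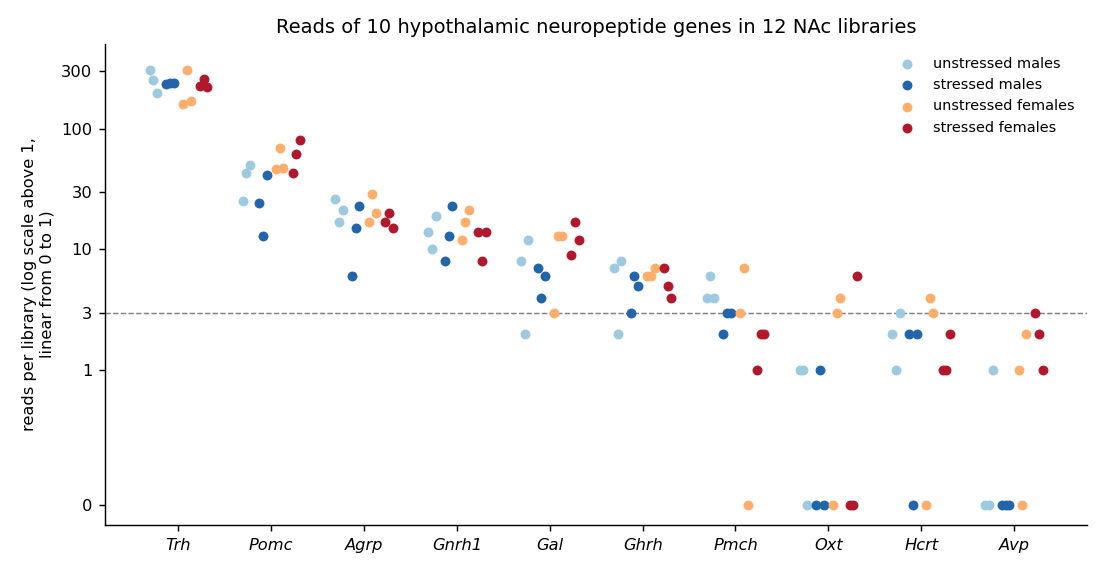
Reads of each of the 10 genes (x axis) in each of the 12 libraries (points, colored by group) on a log axis that is linear from 0 to 1, with the 3-read limit dashed. *Trh* lies between 160 and 306 reads, *Pomc* between 13 and 80, and *Avp* never exceeds 3.

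*Trh*, which encodes the precursor of thyrotropin-releasing hormone (chromosome 6, 92192055 to 92194644, minus strand), was the highest of the 10. It had 306, 251 and 197 reads in NSM, 232, 239 and 236 in SM, 160, 304 and 168 in NSF and 223, 255 and 219 in SF. The libraries lay close together within SM and within SF, whereas those of NSF spread over a wider range. Read numbers, which are not scaled for depth, overlapped between all 4 groups. In scaled CPM, SM (5.08 to 5.84) lay above SF (4.72 to 4.99) and NSF (3.57 to 5.02). SM was not compared with either female group, and the share of all genes without such overlap was not computed. After scaling, *Trh* averaged 4.80 ± 0.802 CPM in NSM, 5.38 ± 0.402 in SM, 4.06 ± 0.824 in NSF and 4.83 ± 0.139 in SF (SD, n = 3 libraries).

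*Pomc* encodes proopiomelanocortin, the precursor of melanocortins and beta-endorphin, and lies on chromosome 12 from 3954951 to 3960618 on the plus strand. It had 25, 43 and 50 reads in NSM, 24, 13 and 41 in SM, 46, 69 and 47 in NSF and 43, 61 and 80 in SF. The highest library was SF replicate 3 and the lowest SM replicate 2. The group means were 0.767 ± 0.288 CPM in NSM, 0.596 ± 0.316 in SM, 1.06 ± 0.0723 in NSF and 1.28 ± 0.426 in SF.

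*Agrp*, made by neurons beside those of *Pomc* in the arcuate nucleus, encodes an antagonist of the melanocortin receptors (chromosome 8, 108090600 to 108092198, minus strand). It had 26, 17 and 21 reads in NSM, 6, 15 and 23 in SM, 17, 29 and 20 in NSF and 17, 20 and 15 in SF. SM held both the lowest CPM of *Agrp*, 0.151 in replicate 1, and the highest, 0.510 in replicate 3. The mean levels were 0.406 ± 0.0571 CPM in NSM, 0.326 ± 0.179 in SM, 0.429 ± 0.0477 in NSF and 0.360 ± 0.0318 in SF.

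*Gnrh1*, the gene of gonadotropin-releasing hormone, which drives the reproductive axis, lies on chromosome 14 from 68363286 to 68367492 on the plus strand. Its reads numbered 14, 10 and 19 in NSM, 8, 13 and 23 in SM, 12, 17 and 21 in NSF and 14, 8 and 14 in SF. Its mean level was 0.275 ± 0.0891 CPM in NSM, 0.329 ± 0.161 in SM, 0.332 ± 0.0986 in NSF and 0.253 ± 0.0837 in SF. All groups overlapped, and as with *Agrp* the highest library was SM replicate 3.

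*Gal* encodes galanin, a peptide of many hypothalamic and brainstem neurons (chromosome 19, 3409919 to 3414472, minus strand), and *Ghrh* growth hormone-releasing hormone (chromosome 2, 157155233 to 157173242, minus strand). *Gal* was counted at 8, 2 and 12 reads in NSM, 7, 4 and 6 in SM, 3, 13 and 13 in NSF and 9, 17 and 12 in SF. *Ghrh* was counted at 7, 2 and 8 reads in NSM, 3, 6 and 5 in SM, 6, 6 and 7 in NSF and 7, 5 and 4 in SF. Each of the genes exceeded 3 reads in 10 of 12 libraries, and both had their lowest CPM in NSM replicate 2. The means of *Gal* were 0.140 ± 0.0980 CPM in NSM, 0.131 ± 0.0456 in SM, 0.186 ± 0.107 in NSF and 0.262 ± 0.0710 in SF, and those of *Ghrh* ran from 0.105 ± 0.0266 in SM to 0.128 ± 0.0257 in NSF.

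**Figure D2:**
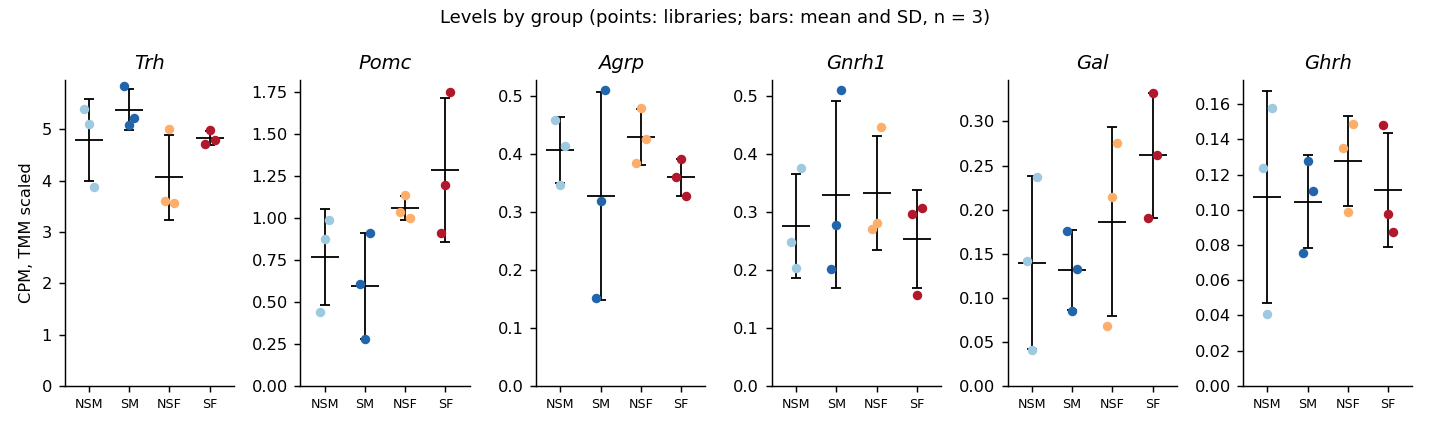
TMM-scaled CPM (y axis, a separate scale from 0 for each gene) of the 6 tested genes by group, with points for libraries and bars for mean and SD (n = 3). Apart from *Pomc* in NSM and NSF, the libraries of unstressed males overlap those of stressed males and of unstressed females, and those of both female groups overlap.

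Levels of different genes were compared per kilobase of exon. The order of the mean levels was *Trh* (3.45 CPM per kb, SD 0.518 over 12 libraries), *Pomc* (0.920, SD 0.376), *Agrp* (0.577, SD 0.142), *Gnrh1* (0.571, SD 0.196), *Gal* (0.252), *Ghrh* (0.169), *Pmch* (0.0822), *Oxt* (0.0504), *Hcrt* (0.0471) and *Avp* (0.0302). *Trh* exceeded *Pomc* 3.75-fold, and its range over the libraries, 2.58 to 4.22 CPM per kb, did not overlap the 0.275 to 1.74 of *Pomc*. The ranges of every other pair of neighbors in this order overlapped. *Penk*, the gene of the enkephalin precursor that striatal projection neurons themselves make, averaged 879 CPM per kb, 255-fold the level of *Trh*.

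Among 21175 protein-coding genes, 57.0% had a lower mean level per kb than *Trh*. The share was 43.2% for *Pomc*, 39.7% for *Agrp*, 39.6% for *Gnrh1* and 34.1% for *Gal*, and it fell from 31.7% for *Ghrh* to 22.9% for *Avp*. The genes share short transcripts. The longest coding transcript of each was shorter than the median of all coding genes, 2303 bases, with *Trh* the longest at 1384 bases and *Ghrh* the shortest at 516. Their GC content ranged from 41.7% in *Pmch* to 65.7% in *Avp* around a median of 49.4% for all coding genes, and only *Pmch* and *Gnrh1* (48.8%) lay below it.

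Stressed and unstressed mice of the same sex were then compared, which asks whether the RNA of these genes, whatever its source, differed between the arms of the study. A gene was called where limma gave p under 0.05 without adjustment and the change was 1.3-fold or more. In males, none of the 6 tested genes was called, where 6.44% of all 18593 tested genes were (2.36% higher and 4.08% lower). No gene of the 6 had CPM that did not overlap between SM and NSM, as 23.0% of all tested genes had. The log2 fold change, SM against NSM, was 0.17 for *Trh* (SE 0.14, 95% interval -0.13 to 0.47), -0.42 for *Pomc* (SE 0.42, -1.31 to 0.47) and -0.42 for *Agrp* (SE 0.33, -1.13 to 0.28). It was 0.22 for *Gnrh1* (SE 0.38), 0.13 for *Gal* (SE 0.60) and 0.13 for *Ghrh* (SE 0.45). The median of the 6 was 0.13, beside -0.01 for all tested genes. The direction or the call changed with single libraries for all of these genes but *Trh*. Without SM replicate 1 the value of *Agrp* was -0.01, and without SM replicate 3 it was -0.80 and the gene was called, while without SM replicate 2 the value of *Pomc* was 0.08. That of *Gal* was -0.47 without NSM replicate 2 and -0.09 without SM replicate 1, that of *Ghrh* was -0.35 without NSM replicate 2 and -0.01 without SM replicate 2, and that of *Gnrh1* was -0.14 without SM replicate 3.

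In females, none of the 6 was called either, where 1.73% of all tested genes were (0.64% higher and 1.09% lower), and none had CPM without overlap between SF and NSF, as 11.3% of all had. The log2 fold change, SF against NSF, was 0.24 for *Trh* (SE 0.15, 95% interval -0.07 to 0.56), 0.22 for *Pomc* (SE 0.32, -0.48 to 0.91), -0.25 for *Agrp* (SE 0.31), -0.40 for *Gnrh1* (SE 0.38), 0.61 for *Gal* (SE 0.51) and -0.17 for *Ghrh* (SE 0.43). The median was 0.02, beside -0.0039 for all tested genes. *Gal* passed the filter only through SF and *Ghrh* only through NSF, so that their values and this median are a description. The value of *Pomc* was -0.02 without SF replicate 3, the library with the most reads of this gene and of *Prl*. *Trh* was called at 0.43 without NSF replicate 2, the NSF library in which it was highest. That library also held the least cortical RNA of its group. The 6 cortical genes summed to 22.6 CPM in NSF replicate 2, where *Trh* had 5.02 CPM, and to 264 and 383 CPM in replicates 1 and 3, where *Trh* had 3.61 and 3.57 CPM. In replicates 1 to 3 of NSM the cortical sum was 16.2, 5.95 and 22.4 CPM, where *Trh* had 5.40, 5.10 and 3.89 CPM. In those of SM it was 50.1, 152 and 210 CPM, where *Trh* had 5.84, 5.08 and 5.23 CPM. In those of SF it was 49.1, 47.5 and 122 CPM, where *Trh* had 4.72, 4.99 and 4.78 CPM. The part of the cortical genes in the result was not tested.

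The difference between the female and the male change, the sex-by-stress interaction, was called for none of the 6, where 4.42% of all tested genes were (2.25% higher and 2.17% lower). It was 0.08 for *Trh* on the log2 scale (SE 0.20, 95% interval -0.36 to 0.51), 0.64 for *Pomc* (SE 0.53, -0.50 to 1.77) and -0.62 for *Gnrh1* (SE 0.54, -1.78 to 0.54). *Gal*, *Agrp* and *Ghrh* had 0.48 (SE 0.79), 0.17 (SE 0.45) and -0.30 (SE 0.62). Leaving out 1 library turned the direction of 4 of these values. That of *Gal* was -0.0020 without NSM replicate 3 and -0.03 without NSF replicate 1, that of *Agrp* was -0.24 without SM replicate 1, and that of *Ghrh* was 0.18 without NSM replicate 2. That of *Trh* was -0.03, -0.0037 and -0.02 without NSM replicate 1, NSF replicate 1 and NSF replicate 3. The intervals of all but *Trh* were wide enough to hold a 2-fold difference, that is 1 on the log2 scale, in at least 1 direction.

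Unstressed females and males differed in none of the 6 by this call, where 5.31% of all tested genes were called (4.17% higher and 1.15% lower). The log2 fold change, NSF against NSM, was -0.22 for *Trh* (SE 0.14), 0.57 for *Pomc* (SE 0.35, 95% interval -0.19 to 1.33), 0.09 for *Agrp* (SE 0.30), 0.26 for *Gnrh1* (SE 0.37), 0.49 for *Gal* (SE 0.57) and 0.35 for *Ghrh* (SE 0.43). *Pomc* was the 1 gene whose groups did not overlap, with 0.441 to 0.986 CPM in NSM and 0.998 to 1.14 in NSF, as held for 19.5% of all tested genes in this comparison. The value of *Pomc* was 0.18 without NSM replicate 1, and those of *Gal*, *Ghrh* and *Agrp* were -0.12, -0.15 and -0.02 without NSM replicate 2. That of *Agrp* was also -0.00091 without NSF replicate 2. *Trh* was called at -0.41 without NSF replicate 2, the library described above for its cortical RNA.

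Across these 4 comparisons, limma, edgeR's quasi-likelihood test and DESeq2's Wald test each found 0 of the 6 genes at an unadjusted p under 0.05. Of all 18593 tested genes, limma found 3992 in SM against NSM and 786 in SF against NSF. It found 1775 in the interaction and 2859 in NSF against NSM. In bulk tissue, fewer cells of a type and less RNA per cell cannot be told apart.

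**Figure D3:**
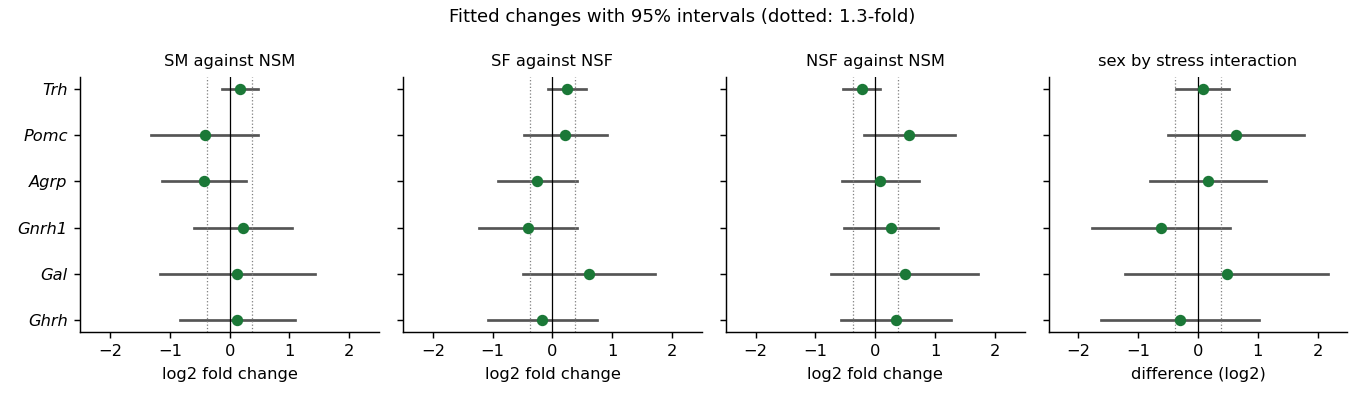
Log2 fold change (x axis) of the 6 tested genes in the 4 comparisons, with points for the limma value, bars for the 95% interval and dotted lines at 1.3-fold. Every interval includes 0, and that of *Trh* is the narrowest in each comparison.

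Genes with the most similar course over the 12 libraries were named for the 4 peptide genes with a mean of at least 10 reads, by Pearson's r of log2 CPM among 17573 genes. These are the highest of many values and are given as a description, and the libraries share depth and tissue makeup. Among the genes closest to *Pomc* were *Arl2* (r = 0.953) and *Rabac1* (0.946), with r within groups of 0.930 and 0.954. *Agrp* ran closest to *Esam* (r = 0.961), *Gm8839* (0.929) and *Gm15948* (0.924). *Trh* ran closest to *Chsy3* (r = 0.919), *Slc30a6* (0.897) and *Frs2* (0.896), and *Gnrh1* to *Stap2* (0.907), *Pxdn* (0.891) and *Gnl3* (0.872). No peptide gene of the 10 was among the genes named for another.

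Genes of neighboring tissues were set beside the peptide genes in the same libraries. The 9 peptide genes other than *Trh* summed to between 1.54 and 2.33 CPM in NSM, 1.17 and 2.28 in SM, 1.98 and 2.49 in NSF and 2.01 and 2.97 in SF. The highest was SF replicate 3, which held 6 of the 16 reads of *Oxt* and 80 reads of *Pomc*. It was also the highest in some pituitary hormone genes, with 50 reads of *Prl*, the prolactin gene, and 41 of *Gh*, the growth hormone gene, against medians of 2 and 11.5 over the 12 libraries. Other pituitary genes did not follow, since *Tshb*, a subunit of thyrotropin, was highest in another library, and *Pou1f1*, a pituitary transcription factor, had its lowest count, 45 reads, in SF replicate 3. The 8 pituitary genes summed to 3.47 CPM there and to between 1.69 and 2.79 in the other libraries, and 3 of the 8 never exceeded 3 reads in any library. The part of pituitary RNA in the *Pomc* and *Oxt* reads was not tested.

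Transcription factors of the hypothalamus were nearly absent. Of the 18 listed, 15 never exceeded 11 reads, 8 never exceeded 3, and *Hmx3* was at 0 in every library, which allows up to 3 reads in each. *Nkx2-1*, a factor of ventral forebrain that is also made by striatal interneurons, had 154 to 325 reads, and *Nkx2-2* had 82 to 149. The 16 factors other than these summed to between 0.547 and 0.630 CPM in NSM and 0.352 and 0.421 in SM. In NSF they summed to between 0.658 and 0.891, and in SF to between 0.678 and 1.25. The SM libraries lay below all others in this sum of few reads, which was not tested. Between SM and NSM, 23.0% of all tested genes had CPM without overlap. *Lhx9*, the only factor of the 16 that was tested, had a log2 fold change of -0.08 (SE 0.33) there. Only *Nkx2-1* of the 3 tested factors was called, in the interaction, with 0.42 on the log2 scale (SE 0.17, adjusted p = 0.470 in limma). The interaction had 4.42% of all tested genes called.

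Genes of other neighboring tissues received more reads. The sum of the 5 septal genes ran from 35.0 CPM in SM to 96.5 in SF, and *Trpc4*, *Zic1*, *Zic2* and *Zic4* were called higher in NSF than in NSM. The 5 thalamic genes summed to between 66.7 and 93.1 CPM, with *Tcf7l2* and *Gbx2* called lower in SM than in NSM and higher in the interaction, and *Prkcd* and *Slc17a6* called higher in NSF than in NSM. In SM against NSM, 3 of the 5 had a log2 fold change below 0 and 2 above 0. The 2 above were *Rora*, at 0.22 (SE 0.05, adjusted p = 0.044 in limma), and *Slc17a6*, at 0.58 (SE 0.45), neither of them called. The thalamic sum averaged 68.0 ± 1.37 CPM in NSM and 70.0 ± 1.08 in SM. Of the 6 cortical genes, *Slc17a7* was called higher in SM than in NSM, 5 were called higher in NSF than in NSM, and 5 were called lower in the interaction. Of all tested genes, 6.44% were called in SM against NSM, 5.31% in NSF against NSM and 4.42% in the interaction. Among these septal, thalamic and cortical calls, only that of *Tcf7l2* in SM against NSM passed an adjusted p of 0.05 (0.048 in limma). Of the ventricle lining genes only *Foxj1* was called, in the interaction, and limma called no pituitary or striatal gene in any of the 4 comparisons. Among the 10 striatal genes, 3 in SM against NSM and 1 in NSF against NSM had an unadjusted p under 0.05. Of all 18593 tested genes, 3992 and 2859 did in these 2 comparisons. While the cortical sum varied 64.2-fold over the libraries, that of *Trh* varied 1.64-fold and that of the other 9 peptide genes 2.54-fold.

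**Figure D4:**
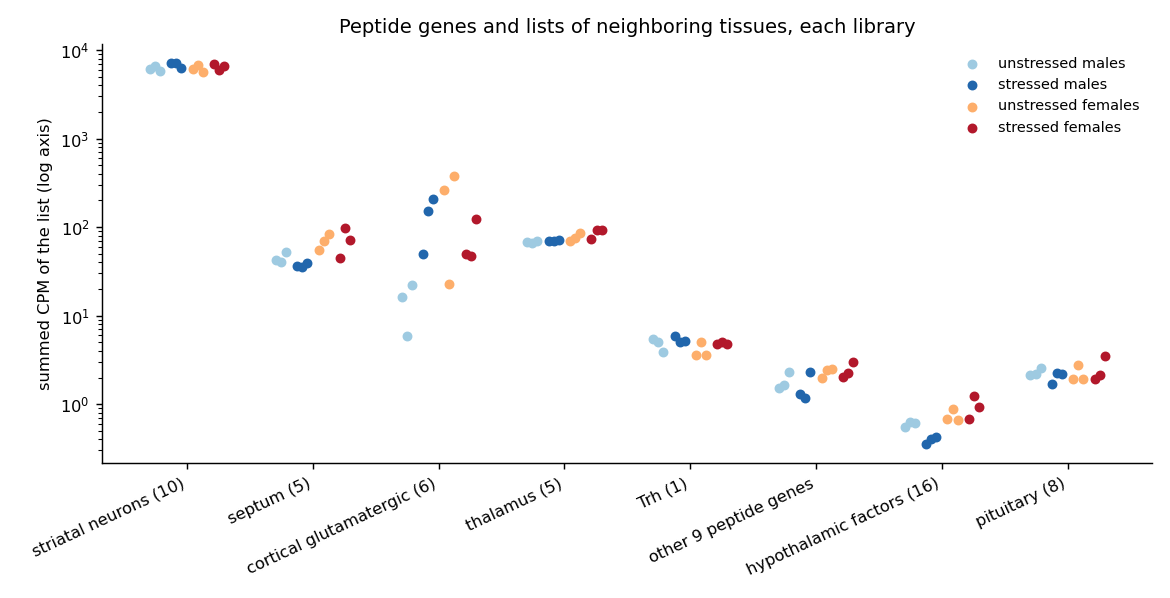
Summed CPM (log y axis) of gene lists for striatal neurons, neighboring tissues, *Trh* and the other 9 peptide genes, with the number of genes in parentheses and a point per library colored by group; the hypothalamic list leaves out *Nkx2-1* and *Nkx2-2*. The cortical sum spreads from 5.95 to 382.5 CPM, whereas *Trh* stays between 3.57 and 5.84.

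The 15 genes found for receptors of the 10 peptides summed to between 94.4 and 118 CPM. Of these 15, 12 were tested. *Gnrhr* and *Ghrhr*, the receptors of the *Gnrh1* and *Ghrh* products, never exceeded 3 reads, with at most 2 and 1. Those with the most reads were *Mchr1*, the receptor of melanin-concentrating hormone, with 54.3 ± 6.33 CPM in NSM, *Trhr*, a receptor of thyrotropin-releasing hormone, with 28.8 ± 4.51, and *Hcrtr2*, an orexin receptor, with 5.73 ± 0.577. None of these 3 was called. *Hcrtr2* lay just under the fold threshold in SM against NSM, at a log2 fold change of -0.38 (SE 0.11, adjusted p = 0.079 in limma). It was 1 of 2 receptors, among the 12 tested, with an unadjusted p under 0.05 there. Of all 18593 tested genes, 3992 had such a p in limma. *Trhr2*, the other receptor of thyrotropin-releasing hormone, was called higher in SM than in NSM, at 3.42 ± 0.201 CPM in NSM and 4.61 ± 0.249 in SM, a log2 fold change of 0.43 (SE 0.12, adjusted p = 0.063 in limma). This comparison had 6.44% of all tested genes called.

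Among the other receptors, *Oxtr*, the oxytocin receptor, was called higher in NSF (7.26 ± 2.97 CPM) than in NSM (3.87 ± 0.395), a log2 fold change of 0.77 (SE 0.26, adjusted p = 0.190 in limma). Its highest value, 10.2 CPM, was in NSF replicate 3, the library with the highest cortical sum (383 CPM), and 5 of the 6 cortical genes were called higher in the same comparison. Between NSM and SM the mean cortical sum went from 14.9 to 137 CPM. *Oxtr* had 4.10 ± 0.565 CPM in SM, a log2 fold change against NSM of 0.08 (SE 0.30). The part of the cortical genes in the result was not tested. The melanocortin receptors *Mc3r* and *Mc4r*, on which the products of *Pomc* and *Agrp* act, were called in the interaction, at 0.51 (SE 0.22) and 0.55 (SE 0.24) on the log2 scale, with adjusted p of 0.482 and 0.487 in limma. The shares of all tested genes called were 4.42% in the interaction and 5.31% in NSF against NSM. No receptor was called in SF against NSF by limma, and edgeR and DESeq2 each called 1. In limma 2 receptors had an unadjusted p under 0.05 there, as did 786 of all 18593 tested genes. No receptor passed an adjusted p of 0.05 in any of the 4 comparisons.

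Genes that process and store peptide precursors were all expressed, with 13 of 13 tested. *Cpe*, the carboxypeptidase that trims precursors, *Scg2*, a granin of secretory vesicles, and *Pcsk2*, a prohormone convertase, had the most reads, and *Cpe* averaged 1798 ± 95.8 CPM in NSM. In males 6 of the 13 had an unadjusted p under 0.05 in limma, as did 3992 of all 18593 tested genes. Of the 6, 3 were lower and 3 higher in SM. The 3 that were also past the fold threshold were the lower ones, *Pcsk1*, the convertase that makes the first cuts in proopiomelanocortin, *Furin*, a convertase of the secretory pathway, and *Vgf*, which encodes a granin-like precursor. This comparison had 6.44% of all tested genes called. *Pcsk2*, *Chgb* and *Scg5* were higher by less than 1.3-fold, and *Pcsk2* had a log2 fold change of 0.29 (SE 0.07, adjusted p = 0.043 in limma). *Pcsk1* averaged 16.2 ± 0.858 CPM in NSM and 10.8 ± 0.596 in SM and fell by 0.58 on the log2 scale (SE 0.13, adjusted p = 0.031 in limma). In females none was called by limma, edgeR or DESeq2 and none had an unadjusted p under 0.05 in limma. *Pcsk1* was called in the interaction (0.57, SE 0.18, adjusted p = 0.318 in limma). *Vgf* (0.47, SE 0.19) and *Pcsk1n* (1.54, SE 0.52), which encodes an inhibitor of *Pcsk1*'s product, were called higher in NSF than in NSM. Their adjusted p was 0.247 and 0.184 in limma, and *Pcsk1n* varied widely within NSM (50.3 ± 36.3 CPM). The shares of all tested genes called were 4.42% in the interaction and 5.31% in NSF against NSM.

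Other peptide genes known from the hypothalamus, many of which the striatum also makes, were tested for 11 of 14. *Sst*, *Npy* and *Cartpt* had the highest mean CPM, and *Sst* averaged 105 ± 14.8 CPM in NSM. In SM against NSM, *Cartpt*, *Nts*, *Tac2*, *Qrfp* and *Crh* were called lower and *Adcyap1* higher. This comparison had 6.44% of all tested genes called, 4.08% lower and 2.36% higher. *Cartpt*, the gene of the cocaine- and amphetamine-regulated transcript, fell by 0.81 (SE 0.12, adjusted p = 0.005 in limma), from 60.9 ± 6.31 CPM in NSM to 34.7 ± 3.17 in SM. *Nts*, the neurotensin gene, fell by 0.90 (SE 0.21, adjusted p = 0.040), and *Tac2*, which encodes neurokinin B, fell by 0.59 (SE 0.13, adjusted p = 0.027). *Adcyap1*, the gene of the peptide PACAP, had 0.281 ± 0.107 CPM in NSM, 1.20 ± 0.619 in SM, 1.86 ± 1.58 in NSF and 0.960 ± 0.124 in SF. The cortical gene *Slc17a7* had 10.8, 107, 174 and 54.9 CPM in the same order of groups, and *Adcyap1* was highest, at 3.57 CPM, in NSF replicate 3, where the cortical sum was highest. The part of cortical RNA in its calls was not tested.

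In SF against NSF only *Nts* of these peptide genes was called, higher in SF at 0.50 (SE 0.21, adjusted p = 0.948 in limma), and DESeq2 called none. The interaction was called for *Nts* (1.40, SE 0.30), *Cartpt* (0.64, SE 0.17), *Tac2* (0.52, SE 0.18), *Crh* (1.10, SE 0.49) and, in the other direction, *Adcyap1* (-2.40, SE 1.02). In NSF against NSM, *Adcyap1* and *Nppc* were called higher and *Nts* lower. The shares of all tested genes called were 1.73% in SF against NSF, 4.42% in the interaction and 5.31% in NSF against NSM. None of the calls of these peptide genes outside the male comparison passed an adjusted p of 0.05. The median male log2 fold change of the 11 tested genes was -0.39, beside 0.13 for the 6 peptide genes described above and -0.01 for all tested genes.

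Small RNA libraries of the same groups were searched for precursors of miR-7, which is abundant in the hypothalamus, and of miR-375, which is abundant in the pituitary. The mature sequences from RefSeq (GRCm38.p6) are shown because the miR-7 precursors share a seed (bases 2 to 8, in capitals), and mir-7a-1 and mir-7a-2 yield one and the same mature miR, so that their reads may be split between them.
mmu-miR-7a-5p: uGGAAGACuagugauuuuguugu
mmu-miR-7b-5p: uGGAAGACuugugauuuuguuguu
mmu-mir-7b had 82840, 62678 and 60170 reads in NSM, 128876, 121354 and 57471 in SM, 84499, 133562 and 89016 in NSF and 91009, 91183 and 109096 in SF. Its mean level was 11929 ± 429 CPM in NSM, 9617 ± 1246 in SM, 12099 ± 737 in NSF and 10822 ± 1863 in SF. mmu-mir-375 had fewer reads, with 76.1 ± 12.6 CPM in NSM, 55.9 ± 14.7 in SM, 99.0 ± 24.3 in NSF and 102 ± 35.0 in SF.

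None of the 4 precursors was called by limma, edgeR or DESeq2 in any of the 4 comparisons. Of the 500 tested precursors, limma called 5.2% in SM against NSM, 4.8% in SF against NSF, 6.8% in the interaction and 7.6% in NSF against NSM. In SM against NSM the log2 fold change was -0.32 for mir-7a-1 (SE 0.10, adjusted p = 0.181), -0.31 for mir-7a-2 (SE 0.10, adjusted p = 0.181) and -0.32 for mir-7b (SE 0.11, adjusted p = 0.214). These 3 had an unadjusted p of 0.0052, 0.0053 and 0.011 in limma and lay under the 1.3-fold threshold. The share of the 500 tested precursors with an unadjusted p under 0.05 was not computed. Because mir-7a-1 and mir-7a-2 yield the same mature miR, their values are not separate results. For mir-375 the log2 fold change was -0.46 (SE 0.26, adjusted p = 0.479). Without SM replicate 1 of the small RNA, 3 of the 4 were called, and without SM replicate 2, 1 was. In SF against NSF the log2 fold change was -0.09 for mir-7a-1 (SE 0.10), -0.17 for mir-7b (SE 0.11) and -0.02 for mir-375 (SE 0.24).

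**Figure D5:**
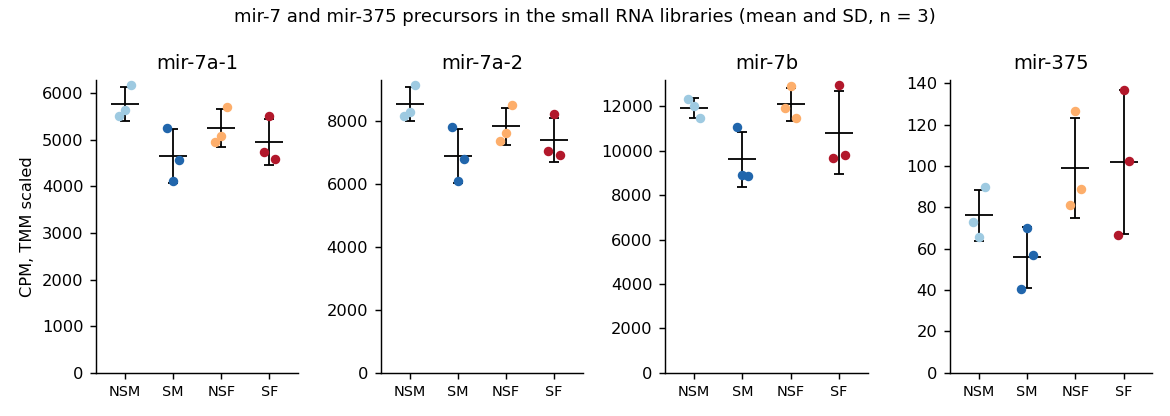
TMM-scaled CPM (y axis from 0) of the mir-7 and mir-375 precursors by group, with points for small RNA libraries and bars for mean and SD (n = 3). The SM means of mir-7b, 9617 CPM, and of mir-7a-1, 4647 CPM, are the lowest of the 4 groups.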

How the data were processed

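RNA was collected from NAc punches of 12 pools for mRNA-Seq and small RNA-Seq, 3 per sex and stress condition. The deposited mRNA values are raw read counts per gene, which the authors made with TopHat2 and HTSeq on the Ensembl annotation of NCBIM37. The deposited small RNA values are raw read counts per precursor, made by the authors with Bowtie on mm9 and HTSeq. Neither was normalized, and versions of these tools and the strand setting are not given in the sources used here. Groups and replicate numbers were taken from the labels, and no library was left out. Symbols, exon lengths and positions are those of GENCODE for NCBIM37, which named 33789 of 38293 genes and 110 of 111 listed genes. The labels do not say that a replicate number marks a shared batch. Same-numbered libraries deviated together, with every correlation over 0.1, only in the small RNA of females (0.116, 0.191 and 0.307).

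Features that exceeded 5 reads in 80% or more of any group's libraries were kept, scaled by TMM factors and fitted with voom and limma 3.58.1 in R 4.3.3 with one mean per group. Called means p under 0.05 without adjustment and a change of 1.3-fold or more. The Benjamini-Hochberg adjustment covered every feature tested in an assay and comparison. CPM are TMM-scaled, and the limit of a count of 0 was set at 3 reads. Alternatives were edgeR 4.0.16, DESeq2 1.42.0, scaling by library size or DESeq2's size factors, a filter of at least 1 read in any library, a replicate block, a fit to only the 2 groups compared, and leaving out each library. The fit was tested on simulated data. With 3 libraries a group, which nothing in the labels ties to separate experiments, p values measure the spread between pools.

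The members and lists were chosen with earlier results of these data known. Named were all 10 peptide genes, from each other list the genes called in any comparison and the 3 with the highest mean CPM, and for each peptide gene that averaged 10 or more reads the 3 genes with the highest Pearson's r. *Prl*, *Ttr*, *Hmx3*, *Gnrhr*, *Ghrhr*, *Chgb* and *Scg5* were named after their values were seen. Some genes that these rules select are not reported here.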

Additional observations from a re-analysis of the deposited data

How the results depend on the processing

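Of 447 values of the log2 fold change of the 6 tested peptide genes under alternatives, 437 moved by less than 1 SE, and the 10 that moved further each left out 1 library. None of the 159 values from other alternatives was called. Leaving out a library gave 0 to 1 called peptide genes in SM against NSM (1 without SM replicate 3), SF against NSF and NSF against NSM (1 each without NSF replicate 2), and 0 in the interaction. For receptors these counts were 1 to 2 in SM against NSM (2 without NSM replicate 3, SM replicate 2 or SM replicate 3), 0 to 3 in SF against NSF (3 without NSF replicate 2 or SF replicate 1), 0 to 3 in the interaction (0 without SM replicate 2, NSF replicate 1, NSF replicate 3 or SF replicate 2) and 1 to 2 in NSF against NSM (2 without NSF replicate 2). For processing genes they were 1 to 4 in SM against NSM (1 without NSM replicate 3), 1 to 4 in the interaction (4 without NSM replicate 1) and 0 to 3 in NSF against NSM (0 without NSM replicate 1). For other peptide genes and hypothalamic factors together they were 3 to 6 in SM against NSM (3 without NSM replicate 1 or SM replicate 3), 0 to 2 in SF against NSF (0 without NSF replicate 1 or SF replicate 2), 3 to 7 in the interaction (3 without SM replicate 2, NSF replicate 1 or SF replicate 2) and 2 to 6 in NSF against NSM (6 without NSF replicate 2). For the miR precursors they were 0 to 3 in SM against NSM and 0 to 1 in the interaction (1 without SF replicate 1).

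Called receptors in SM against NSM numbered 2, against 1, with scaling by library size and with a filter of at least 1 read, and in SF against NSF 1, against 0, by edgeR and by DESeq2. Called processing genes in NSF against NSM numbered 1, against 2, in a fit to only the 2 groups compared. Called other peptide genes and hypothalamic factors in SF against NSF numbered 0 by DESeq2 and 3 with a filter of at least 1 read, against 1, and in NSF against NSM 5, against 3, with that filter. Called precursors in SM against NSM numbered 1, against 0, with only the 2 groups. The causes were not tested.

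Replicate numbers 1 to 3 recur in each group. Deviations of same-numbered mRNA libraries from their group means correlated at 0.024, 0.00073 and 0.316 in males and at 0.100, 0.076 and 0.107 in females, so that not every pair passed 0.1 and the numbers were taken as names. In the small RNA the male correlations were 0.047, -0.020 and 0.294, and in females every pair passed 0.1. With a replicate block the count of called peptide genes was 0 in all 4 comparisons, that of processing genes in the interaction was 2, against 1, and that of precursors in SM against NSM was 1, against 0, and in SF against NSF it stayed at 0.

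The number of reads is a limit. *Ghrh* and *Gal* averaged 5.50 and 8.83 reads per library, and the 95% interval of *Gal* reached past 1 on the log2 scale, a 2-fold change, in all 4 comparisons.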

Other observations

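In each of the 4 groups the library numbered 3 had the highest sum of the 9 peptide genes other than *Trh*. The sums were 1.54, 1.67 and 2.33 CPM in NSM, 1.31, 1.17 and 2.28 in SM, 1.98, 2.44 and 2.49 in NSF and 2.01, 2.27 and 2.97 in SF, for the libraries numbered 1, 2 and 3. The numbers were taken as names, and the labels give them no meaning.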
